A study of Homo sapiens with 27 samples.

Results

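The sirtuins SIRT1 to SIRT7 were followed after knockdown of one of them, SIRT3, in diffuse large B-cell lymphoma (DLBCL) cells. The 7 family members were taken by gene symbol from the 27115 genes in the files, and each of the 7 was found in all 27 libraries. RNA was sequenced from 3 established human DLBCL cell lines on day 8 after lentiviral infection. Karpas422 was used by the study as a line of the oxidative phosphorylation subtype, OCI-LY1 as germinal centre B-cell-like, and HBL1 as activated B-cell-like. In each line the cells carried shCtr, a scramble hairpin, or shSIRT3-1 or shSIRT3-2, hairpins against SIRT3, with 3 replicates in each of the 9 groups. All groups shared the same vector, pLKO.1, which coexpresses the shRNA with yellow fluorescent protein and carries puromycin resistance, so the shCtr cells were infected cells too. The labels do not say whether the replicates were separate infections, so p-values measure the spread between these samples, which may be technical.

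Sirtuins are NAD+-dependent enzymes that remove acetyl or other acyl groups from lysines, and each round of the reaction consumes NAD+. SIRT1, SIRT6 and SIRT7 are mainly nuclear, SIRT2 is mainly cytosolic, and SIRT3, SIRT4 and SIRT5 reside in mitochondria. SIRT3 is the main mitochondrial deacetylase, SIRT5 removes succinyl, malonyl and glutaryl groups, and SIRT4 is a weaker deacylase known for restraining glutamate dehydrogenase. The question put to the data was whether the mRNA of any other sirtuin rose when SIRT3 fell, and whether any fell with 1 hairpin and not with the other.

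The files held values labelled FPKM that behaved as CPM, a gene's reads scaled to the library total, divided by the same constant for every gene, and levels are given here as CPM. Reads on genes ranged from 28694398 to 53405456 per library, with a median of 45669254. The B-cell identity of the lines was visible in all groups: the summed level of 7 B-cell marker genes lay between 3018 and 4308 CPM with shCtr, between 3456 and 4529 CPM with shSIRT3-1, and between 1767 and 3511 CPM with shSIRT3-2. The summed level of 12 markers of other cell types lay between 1.44 and 44.4 CPM with shCtr, between 1.11 and 30.5 CPM with shSIRT3-1, and between 0.682 and 13.1 CPM with shSIRT3-2. Among those, PECAM1 and EPCAM were expressed in HBL1, at 18.6 ± 10.6 and 10.6 ± 2.25 CPM with shCtr (SD, n = 3). The erythroid marker HBB and the hepatocyte marker ALB were at 0.0795 CPM or below and 0.0896 CPM or below in every library.

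In shCtr cells, 6 of the 7 sirtuins were clearly expressed in every line, while SIRT4 was near the lower limit of the data. Levels between genes were compared per kb of the canonical transcript. In Karpas422, SIRT1 stood highest at 23.9 ± 3.95 CPM per kb (SD, n = 3), above SIRT6 at 14.5 ± 0.816, SIRT7 at 13.4 ± 1.43 and SIRT2 at 11.6 ± 1.23 CPM per kb. SIRT3 followed at 5.99 ± 0.346, SIRT5 at 3.69 ± 0.345 and SIRT4 at 0.444 ± 0.137 CPM per kb. The library ranges of SIRT6 and SIRT7 overlapped, as did those of SIRT7 and SIRT2, and the other neighbours in this order did not overlap.

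The order was different in the other lines. In OCI-LY1, SIRT2 stood first at 20.2 ± 0.263 CPM per kb, followed by SIRT1 at 14 ± 3.66, SIRT6 at 13.2 ± 0.368 and SIRT7 at 11.1 ± 1.17 CPM per kb (SD, n = 3). SIRT5 at 7.19 ± 1.33 and SIRT3 at 7.04 ± 1.23 CPM per kb overlapped, and SIRT4 was at 1.33 ± 0.0801 CPM per kb. In HBL1, SIRT6 stood first at 16.9 ± 0.616 CPM per kb, SIRT7, SIRT2 and SIRT1 lay within 11.7 to 12.7 CPM per kb, SIRT3 was at 9.0 ± 0.909, and SIRT4 at 1.73 ± 0.139 and SIRT5 at 1.72 ± 0.589 CPM per kb overlapped. These orders depended on the length used. With the union of all annotated exons as the length, a choice made after seeing the data, SIRT1 stood first in each of the 3 lines, and 16 of the 21 levels moved by more than 1 SD.

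**Figure D1:**
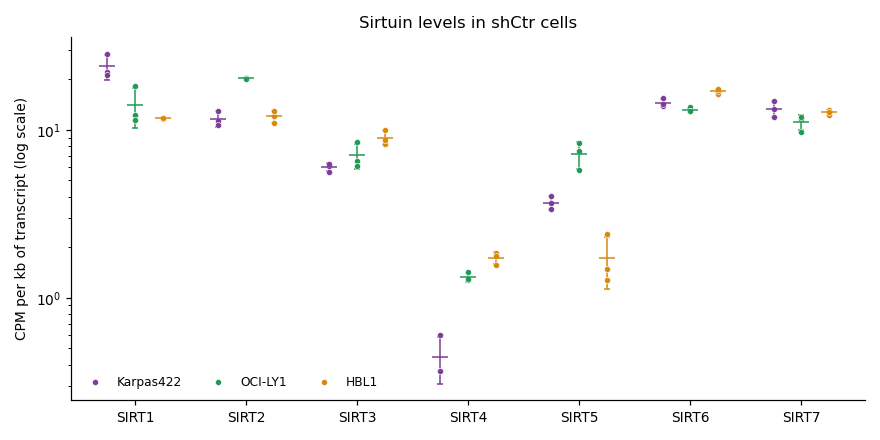
Level of each sirtuin in the shCtr libraries, in CPM per kb of the canonical transcript on a log axis, by cell line (points, libraries; bars, mean ± SD, n = 3). SIRT4 lies lowest in Karpas422 at 0.444 CPM per kb, and SIRT5 spans from 1.72 CPM per kb in HBL1 to 7.19 CPM per kb in OCI-LY1.

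Between lines, the mitochondrial member SIRT5 differed most in shCtr cells. SIRT5 in HBL1 was 23.8% of its OCI-LY1 level (95% interval 16.7% to 33.8%, log2 difference -2.07, adjusted p = 1.55e-05, limma with Benjamini-Hochberg adjustment) and 45.7% of its Karpas422 level (-1.13, adjusted p = 0.00127, limma). SIRT4 in HBL1 was 3.23-fold higher than in Karpas422 (1.69, adjusted p = 1.63e-05, limma, and 9.99e-05 with no filter on low values, since only its HBL1 libraries reached the minimum), a call lost under quantile normalization (0.30). Its HBL1 level did not differ from OCI-LY1 by the test (0.35, 95% interval of the ratio 95.1% to 170.1%, adjusted p = 0.127, limma), and this difference turned to -0.81 under quantile normalization. A gene was called when its fold change was above 1.5 with an adjusted p under 0.05. By that rule 3 of the 7 sirtuins differed between HBL1 and Karpas422, against 54.6% of the 12607 genes tested, 2 of 7 between HBL1 and OCI-LY1, against 54.6%, and 4 of 7 between Karpas422 and OCI-LY1, against 50.8%. SIRT4 is among the 3 and among the 4, and its place there supports nothing, since it passed the filter only through HBL1. With only 7 sirtuins, these counts are given beside the shares of all genes, and a difference from those shares was not tested.

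SIRT1 and SIRT2 were also called between lines. SIRT1 stood at 98 ± 16.2 CPM in Karpas422, 57.4 ± 15 CPM in OCI-LY1 and 48.2 ± 0.268 CPM in HBL1 (SD, n = 3), so that HBL1 held 49.7% of the Karpas422 level (adjusted p = 0.000432, limma). SIRT2 was higher in OCI-LY1 than in HBL1 (log2 difference of HBL1 against OCI-LY1 -0.75, adjusted p = 0.00024, limma) and than in Karpas422 (Karpas422 against OCI-LY1 -0.80, adjusted p = 0.000175, limma). SIRT3 itself was called in none of these 3 comparisons, at 17.3 ± 0.997 CPM in Karpas422, 20.3 ± 3.53 CPM in OCI-LY1 and 25.9 ± 2.62 CPM in HBL1 (SD, n = 3). The SIRT3 difference between HBL1 and Karpas422 was just short of the fold limit at 1.49-fold (adjusted p = 0.00544, limma). It was called in 8 of 22 alternatives, and the settings that kept all libraries gave log2 differences of 0.54 to 0.65. Left-out libraries that gained the call were HBL1 shCtr replicates 1 (0.63) and 2 (0.60) and Karpas422 shCtr replicates 1 (0.59) and 3 (0.61).

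SIRT3, the target of the hairpins, fell in every line with each shRNA, and shSIRT3-1 lowered it further. In Karpas422 the shCtr libraries held 17.6, 16.1 and 18 CPM, the shSIRT3-1 libraries 4.31, 4.92 and 4.53 CPM, and the shSIRT3-2 libraries 11, 9.39 and 7.79 CPM. In OCI-LY1 the shCtr libraries held 18.9, 24.3 and 17.6 CPM, the shSIRT3-1 libraries 3.94, 1.87 and 2.86 CPM, and the shSIRT3-2 libraries 10.9, 7.16 and 10.7 CPM. In HBL1 the shCtr libraries held 23.9, 25 and 28.9 CPM, the shSIRT3-1 libraries 3.76, 4.22 and 3.53 CPM, and the shSIRT3-2 libraries 5.02, 5.51 and 6.75 CPM. In each line the 3 groups were fully apart, with shCtr highest and shSIRT3-1 lowest. In bulk RNA, fewer cells carrying a transcript and less transcript per cell cannot be told apart.

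Over the 3 lines SIRT3 stood at 18.3% of shCtr with shSIRT3-1 (95% interval 14.2% to 23.5%, log2 fold change -2.45 ± 0.175 SE, adjusted p = 3.81e-10, limma) and at 38.8% with shSIRT3-2 (30.2% to 49.7%, -1.37 ± 0.175, adjusted p = 2.21e-06, limma). Both comparisons use the same 9 shCtr libraries. Of the 13076 genes tested, SIRT3 had the 20th lowest fold change with shSIRT3-1 and the 176th lowest with shSIRT3-2. The residual level was 2.12-fold higher with shSIRT3-2 than with shSIRT3-1 (95% interval 1.65 to 2.72, adjusted p = 4.57e-05, limma).

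**Figure D2:**
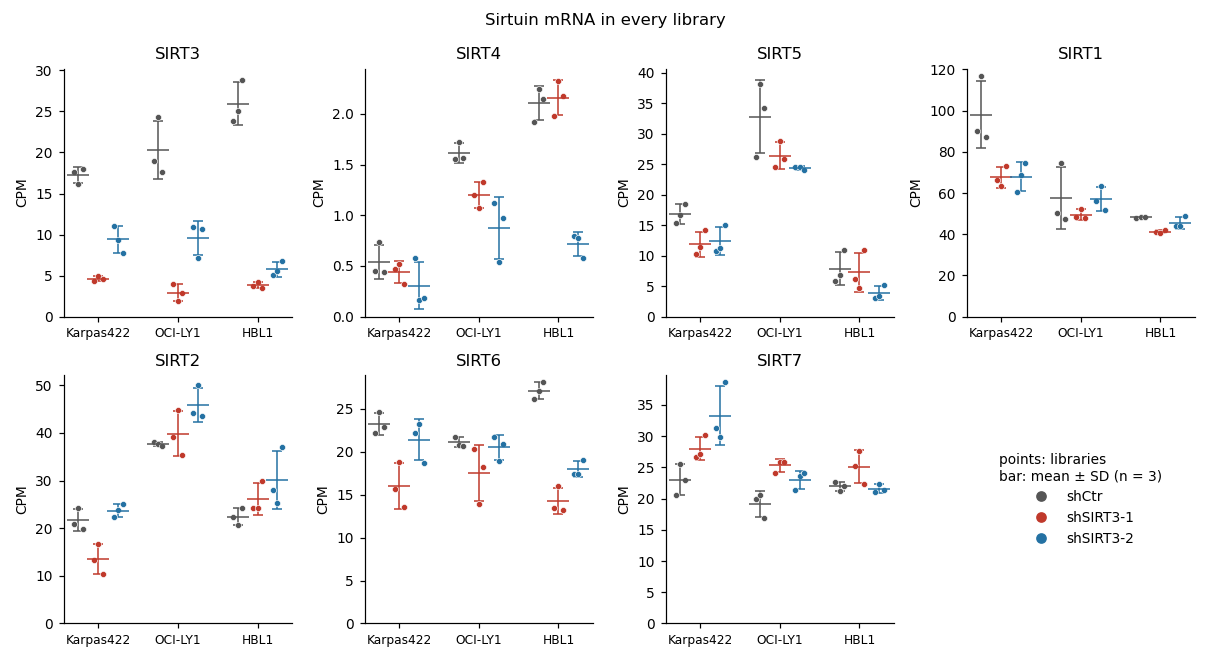
CPM of each sirtuin in all 27 libraries by cell line and shRNA (points, libraries; bars, mean ± SD, n = 3; every axis starts at 0). SIRT3 is lower in all 18 knockdown libraries than in any shCtr library of the same line, and no other sirtuin shows that in all 3 lines with both shRNAs.

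None of the other 6 sirtuins was called higher in any of the knockdown comparisons against shCtr. With shSIRT3-1 over the 3 lines, 1 of the 7 sirtuins was called, SIRT3 itself, which was lower, against 13.0% of all genes tested, 9.09% lower and 3.92% higher. With shSIRT3-2, 3 of the 7 were called, SIRT3, SIRT4 and SIRT5, all lower, against 13.5% of all genes, 10.2% lower and 3.29% higher. By adjusted p alone, 4 of 7 passed with shSIRT3-1, against 37.9% of genes, and 5 of 7 with shSIRT3-2, against 38.1%. In both cases SIRT7 was the only sirtuin that passed in the upward direction. The split of calls over all genes depended on scaling: 512 of 1701 called genes were higher with shSIRT3-1, or 805 of 1774 after quantile normalization, and 430 of 1760 were higher with shSIRT3-2, or 695 of 1631.

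The mitochondrial sirtuins SIRT4 and SIRT5 were lower with shSIRT3-2. SIRT4 was scarce, with between 10 and 151 reads per library, and it passed the filter on low values only through HBL1: the 6 libraries that reached the minimum were the shCtr and shSIRT3-1 libraries of that line. It was thus tested only through groups in which it was high, so its calls are given also from a fit with no filter on low values, and its place in the counts of called sirtuins supports nothing. In HBL1 it held 1.92, 2.25 and 2.15 CPM with shCtr, 1.98, 2.32 and 2.18 CPM with shSIRT3-1, and 0.793, 0.778 and 0.580 CPM with shSIRT3-2. In OCI-LY1 it held 1.55, 1.73 and 1.56 CPM with shCtr, 1.2, 1.07 and 1.33 CPM with shSIRT3-1, and 1.12, 0.536 and 0.970 CPM with shSIRT3-2. In those 2 lines the shSIRT3-2 libraries were all below the shCtr libraries, and in OCI-LY1 the shSIRT3-1 libraries were as well.

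In Karpas422 SIRT4 was near the floor, at 0.447, 0.733 and 0.443 CPM with shCtr, 0.473, 0.522 and 0.318 CPM with shSIRT3-1, and 0.574, 0.164 and 0.180 CPM with shSIRT3-2, and the groups overlapped. Over the 3 lines SIRT4 stood at 52.1% of shCtr with shSIRT3-2 (95% interval 41.0% to 66.3%, log2 fold change -0.94 ± 0.17 SE, adjusted p = 0.000129, limma, and 0.000304 with no filter) and at 87.8% with shSIRT3-1 (69.1% to 112%, adjusted p = 0.399, limma). Fitted in HBL1 alone, it was at 39.0% with shSIRT3-2 (adjusted p = 0.000893, limma, and 0.00267 with no filter) and at 102% with shSIRT3-1 (95% interval 77.1% to 136%). SIRT4 was lower with shSIRT3-2 than with shSIRT3-1 over the 3 lines (59.3%, 95% interval 46.7% to 75.5%, adjusted p = 0.00144, limma, and 0.00307 with no filter). With a pseudocount of 1, which is large beside these values, the log2 fold change with shSIRT3-2 was -0.39 and the call was lost.

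SIRT5 was lower with shSIRT3-2 in all 9 libraries than the shCtr mean of the same line. In Karpas422 it held 15.3, 16.7 and 18.5 CPM with shCtr, 10.2, 11.3 and 14.2 CPM with shSIRT3-1, and 10.8, 11.3 and 14.9 CPM with shSIRT3-2. In OCI-LY1 it held 26.2, 38.1 and 34.2 CPM with shCtr, 24.5, 28.8 and 25.9 CPM with shSIRT3-1, and 24.5, 24.5 and 24.0 CPM with shSIRT3-2. In HBL1 it held 5.84, 6.80 and 10.9 CPM with shCtr, 6.23, 4.72 and 10.9 CPM with shSIRT3-1, and 3.0, 3.39 and 5.24 CPM with shSIRT3-2, and replicate 3 was the highest of each HBL1 group. The shSIRT3-2 and shCtr libraries did not overlap in any line, and with shSIRT3-1 only those of Karpas422 were apart.

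Over the 3 lines SIRT5 stood at 65.4% of shCtr with shSIRT3-2 (95% interval 52.3% to 81.9%, log2 fold change -0.61 ± 0.16 SE, adjusted p = 0.00351, limma) and at 80.4% with shSIRT3-1 (64.3% to 100.6%, adjusted p = 0.117, limma). The shRNAs did not differ by the test (81.3% with shSIRT3-2 of the shSIRT3-1 level, 95% interval 65.0% to 102%, adjusted p = 0.148, limma). The SIRT5 call was close to the fold limit. It was lost without HBL1 shCtr replicate 3 (-0.53), HBL1 shSIRT3-2 replicate 1 (-0.53) or HBL1 shSIRT3-2 replicate 2 (-0.55), each with an adjusted p under the threshold, and without the HBL1 line altogether (-0.43). It was also lost after quantile normalization (-0.50), median-ratio scaling (-0.58), with a pseudocount of 1 (-0.52) and without replicate 2 of every group (-0.56, adjusted p = 0.0888, limma).

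Among the nuclear members, SIRT6, a deacylase of chromatin linked to DNA repair and to repression of glycolytic genes, was lower with shSIRT3-1 in all 9 libraries. In Karpas422 it held 22.1, 24.7 and 22.9 CPM with shCtr and 15.7, 18.9 and 13.5 CPM with shSIRT3-1, in OCI-LY1 21.8, 20.8 and 20.7 CPM against 20.3, 13.9 and 18.3 CPM, and in HBL1 26.2, 27.1 and 28.1 CPM against 13.5, 16.0 and 13.2 CPM. The shSIRT3-1 libraries lay below all shCtr libraries in each line. With shSIRT3-2 SIRT6 held 22.2, 23.2 and 18.7 CPM in Karpas422, 21.8, 18.9 and 20.9 CPM in OCI-LY1, and 17.4, 17.4 and 19.1 CPM in HBL1, and only in HBL1 were these apart from shCtr.

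SIRT6 stood at 66.7% of shCtr with shSIRT3-1 over the 3 lines (95% interval 58.4% to 76.2%, log2 fold change -0.58 ± 0.09 SE, adjusted p = 3.17e-05, limma), just short of the fold limit of 1.5. It was at 84.0% with shSIRT3-2 (73.5% to 96.0%, adjusted p = 0.0361, limma), and the shRNAs differed (126% with shSIRT3-2 of the shSIRT3-1 level, 95% interval 110% to 144%, adjusted p = 0.00845, limma), with a fold change under the limit. In HBL1 alone SIRT6 was called with both shRNAs, at 52.7% with shSIRT3-1 (adjusted p = 0.000517, limma) and 66.5% with shSIRT3-2 (adjusted p = 0.00427, limma). The call with shSIRT3-1 over the 3 lines was gained in 14 of 43 alternatives, with the lowest log2 fold change, -0.73, without OCI-LY1. Among these it was gained without any 1 of 9 libraries, at log2 fold changes of -0.59 to -0.63: Karpas422 shCtr replicates 1 and 3, Karpas422 shSIRT3-1 replicate 2, the 3 OCI-LY1 shCtr libraries, OCI-LY1 shSIRT3-1 replicates 1 and 3, and HBL1 shSIRT3-1 replicate 2.

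SIRT7, a nucleolar deacylase tied to ribosomal RNA transcription, was the sirtuin that moved up, by less than the fold limit. In Karpas422 it held 20.7, 25.6 and 22.9 CPM with shCtr, 26.7, 27.1 and 30.2 CPM with shSIRT3-1, and 31.4, 29.8 and 38.6 CPM with shSIRT3-2. In OCI-LY1 it held 19.9, 20.7 and 16.8 CPM with shCtr, 24.2, 25.8 and 25.9 CPM with shSIRT3-1, and 21.3, 23.6 and 24.0 CPM with shSIRT3-2. In HBL1 it held 22.7, 21.2 and 22 CPM with shCtr, 25.2, 27.7 and 22.4 CPM with shSIRT3-1, and 21, 22.4 and 21.4 CPM with shSIRT3-2. Both knockdown groups were above shCtr in Karpas422 and OCI-LY1 without overlap, and in HBL1 they overlapped with it.

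Over the 3 lines SIRT7 stood at 122% of shCtr with shSIRT3-1 (95% interval 109% to 137%, log2 fold change 0.29 ± 0.08 SE, adjusted p = 0.00558, limma) and at 119% with shSIRT3-2 (107% to 134%, 0.26 ± 0.08, adjusted p = 0.0137, limma), and it was above the shCtr mean in 9 of 9 and 7 of 9 libraries. The largest difference was that of shSIRT3-2 in Karpas422, at 144% (95% interval 119% to 174%, adjusted p = 0.0113, limma). It was called in 3 of 21 alternatives. These left out Karpas422 shCtr replicate 2 (log2 fold change 0.60), Karpas422 shSIRT3-2 replicate 2 (0.60) or replicate 2 of every group (0.67).

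SIRT1, the nuclear deacetylase of p53 and FOXO factors, was lower with shSIRT3-1 without reaching the fold limit. In Karpas422 it held 90.2, 117 and 87.1 CPM with shCtr, 66.2, 63.4 and 73.2 CPM with shSIRT3-1, and 60.4, 68.7 and 74.5 CPM with shSIRT3-2. In HBL1 it held 47.9, 48.5 and 48.2 CPM with shCtr, 40.9, 40.7 and 42.1 CPM with shSIRT3-1, and 43.9, 43.9 and 48.9 CPM with shSIRT3-2. In OCI-LY1 it held 50.3, 74.7 and 47.2 CPM with shCtr, 48.2, 52.4 and 48.0 CPM with shSIRT3-1, and 56.0, 63.2 and 51.6 CPM with shSIRT3-2. The groups were apart in Karpas422 with both shRNAs and in HBL1 with shSIRT3-1, and overlapped otherwise.

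SIRT1 stood at 80.7% of shCtr with shSIRT3-1 (95% interval 71.2% to 91.3%, adjusted p = 0.0066, limma) and at 87.3% with shSIRT3-2 (77.1% to 98.8%, adjusted p = 0.0766, limma). In Karpas422 alone it was at 69.5% (adjusted p = 0.0118, limma) and 69.7% (adjusted p = 0.0125, limma), short of the fold limit. There it was called with either shRNA without Karpas422 shCtr replicate 3 (log2 fold change -0.60 with each) and with shSIRT3-2 without Karpas422 shSIRT3-2 replicate 3 (-0.59). Without replicate 3 of every group it was called with both, at -0.66 with shSIRT3-1 and -0.67 with shSIRT3-2.

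SIRT2, the mainly cytosolic member and a tubulin deacetylase, was lower with shSIRT3-1 in Karpas422. With shSIRT3-2 it was above the shCtr mean of the same line in 9 of 9 libraries. In Karpas422 it held 20.9, 24.3 and 19.9 CPM with shCtr, 13.4, 16.8 and 10.3 CPM with shSIRT3-1, and 22.3, 23.8 and 25 CPM with shSIRT3-2. In OCI-LY1 it held 38.1, 37.7 and 37.2 CPM with shCtr, 39.2, 44.8 and 35.4 CPM with shSIRT3-1, and 44.1, 50.1 and 43.5 CPM with shSIRT3-2. In HBL1 it held 22.4, 20.6 and 24.2 CPM with shCtr, 24.2, 24.2 and 29.9 CPM with shSIRT3-1, and 28.0, 25.4 and 37.1 CPM with shSIRT3-2. The shSIRT3-2 libraries were above shCtr without overlap in OCI-LY1 and HBL1, and the shSIRT3-1 libraries were below it in Karpas422.

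SIRT2 in Karpas422 was called lower with shSIRT3-1, at 61.7% of shCtr (95% interval 47.9% to 79.4%, log2 fold change -0.70 ± 0.16 SE, adjusted p = 0.0105, limma). The call was lost in 4 of 21 alternatives, among them without Karpas422 shSIRT3-1 replicate 3 (-0.52) and under quantile normalization (-0.55). With a replicate or library left out, the adjusted p reached 0.11 (limma). Over the 3 lines SIRT2 was at 91.0% with shSIRT3-1 (77.0% to 107%, adjusted p = 0.371, limma) and at 121% with shSIRT3-2 (102% to 143%, adjusted p = 0.065, limma). The shRNAs differed, with SIRT2 at 133% with shSIRT3-2 of its shSIRT3-1 level (95% interval 113% to 157%, adjusted p = 0.00895, limma), under the fold limit. Of the 7 sirtuins, 2 were called between the shRNAs, SIRT3 higher and SIRT4 lower with shSIRT3-2, against 11.3% of all genes, and 4 passed the adjusted p alone, against 31.7%.

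**Figure D3:**
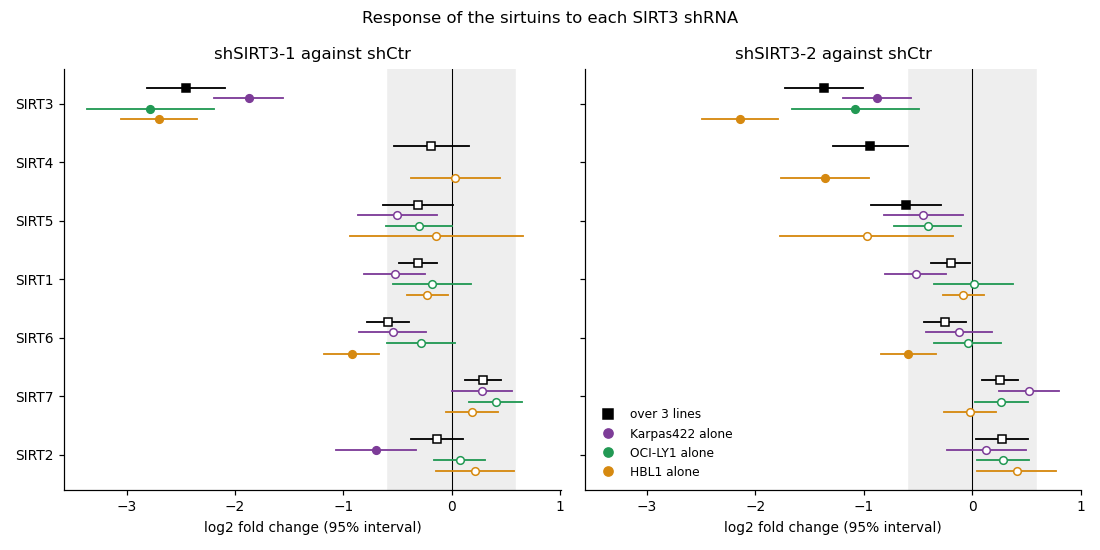
Log2 fold change of each sirtuin against shCtr with its 95% interval, over the 3 lines (squares) and in each line alone (circles), for shSIRT3-1 (left) and shSIRT3-2 (right). Filled symbols were called, the grey band is the range within a 1.5-fold change, and no filled symbol lies to the right of 0. SIRT4 was tested alone only in HBL1.

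Fitted in each line alone, SIRT3 was called in every line with each shRNA, and no sirtuin was called higher. In Karpas422, 2 of 6 sirtuins tested were called with shSIRT3-1, SIRT3 and SIRT2, against 16.0% of genes, and 1 of 6 with shSIRT3-2, SIRT3, against 15%. In OCI-LY1 only SIRT3 was called, 1 of 6 with each shRNA, against 4.50% of genes with shSIRT3-1 and 6.41% with shSIRT3-2. In HBL1, 2 of 7 were called with shSIRT3-1, SIRT3 and SIRT6, against 27.7%, and 3 of 7 with shSIRT3-2, SIRT3, SIRT4 and SIRT6, against 23.5%. The SIRT3 fall in OCI-LY1 with shSIRT3-2 had the weakest test of the 6, at 47.3% of shCtr (95% interval 31.5% to 70.9%, adjusted p = 0.0351, limma).

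That SIRT3 call in OCI-LY1 was lost, with the direction kept, without shCtr replicate 2 (log2 fold change -0.94) or 3 (-1.17), shSIRT3-1 replicate 3 (-1.08), or shSIRT3-2 replicate 1 (-1.18), 2 (-0.89) or 3 (-1.17). The SIRT6 call in HBL1 with shSIRT3-2 was lost without shCtr replicate 3 (-0.56) or shSIRT3-2 replicate 1 (-0.57) or 2 (-0.57), after quantile normalization (-0.48) or median-ratio scaling (-0.47), and with a pseudocount of 1 (-0.55). SIRT5 in HBL1 with shSIRT3-2, at 50.9% of shCtr, missed the adjusted p at 0.0597 (limma). It was called with the replicate number as a block (-0.97, adjusted p = 0.00326, limma) and in the edgeR likelihood ratio test (-1.02, adjusted p = 0.0292), but not in the edgeR quasi-likelihood test (adjusted p = 0.0628), and it passed without HBL1 shSIRT3-1 replicate 2 or 3 (-0.97 in each). In Karpas422, SIRT5 was called without shSIRT3-1 replicate 3 with that shRNA (-0.63) and without shSIRT3-2 replicate 3 with the other (-0.59), and SIRT6 without shSIRT3-1 replicate 2 (-0.67).

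The response differed between the lines for 4 of the 7 sirtuins by the test of the interaction (limma F test), against 41.8% of all genes. SIRT3 was retained more in Karpas422, at 27.3% of shCtr with shSIRT3-1 and 54.4% with shSIRT3-2, than in HBL1, at 15.4% and 22.6%, while OCI-LY1 stood at 14.5% and 47.3% (interaction adjusted p = 0.00291, limma). SIRT2 (adjusted p = 0.012, limma), SIRT7 (adjusted p = 0.0393, limma) and SIRT6 (adjusted p = 0.0425, limma) were the other 3. The values for SIRT6 and SIRT7 were near the threshold, and leaving out any of many single libraries moved them past it. No difference between lines passed for SIRT4 (0.118), SIRT1 (0.139) or SIRT5 (0.215), as adjusted p by limma.

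The summed level of the 6 other sirtuins per kb is given as a description with no test. The sum of the 6 in Karpas422 amounted to 67.5 ± 7.31 CPM per kb under the scramble hairpin, 52.9 ± 1.85 under shSIRT3-1 and 64.9 ± 3.84 under shSIRT3-2 (SD, n = 3). It was 67.0 ± 5.44, 65.8 ± 1.89 and 70.7 ± 2.48 CPM per kb in OCI-LY1, and 56.9 ± 2.03, 50.9 ± 1.67 and 52.5 ± 4.59 CPM per kb in HBL1. Only in OCI-LY1 with shSIRT3-2 was the mean above that of shCtr.

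The mean share of SIRT3 in the mitochondrial sirtuin mRNA was lower after knockdown. The fall of SIRT3 itself enters this share, so it is a description that tells nothing about SIRT4 or SIRT5. The share of the summed SIRT3, SIRT4 and SIRT5 mRNA per kb in Karpas422 amounted to 59.2% ± 2.72 under the scramble hairpin, 35.1% ± 2.78 under shSIRT3-1 and 52.3% ± 7.15 under shSIRT3-2. There the shSIRT3-2 libraries (44.1% to 57.3%) overlapped with the shCtr libraries (56.8% to 62.2%). In OCI-LY1 the share was 45.2% ± 3.73, 12.9% ± 4.71 and 35.1% ± 4.48, and in HBL1 it was 72.4% ± 1.84, 28.7% ± 5.44 and 58.0% ± 0.977 (SD, n = 3). The summed SIRT4 and SIRT5 level was not above shCtr in any knockdown group: in HBL1 it went from 3.45 ± 0.655 CPM per kb with shCtr to 3.37 ± 0.699 with shSIRT3-1 and 1.44 ± 0.165 with shSIRT3-2.

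The sequences of the hairpins are not given in the sources used here, so no hairpin was matched to a transcript. Whether a hairpin acted on another sirtuin was not tested. The longest identical run between the canonical mRNAs of SIRT3 and SIRT2 had 15 bases, and that of SIRT3 and SIRT6 had 14. They are shown because they are coding sequence that both mRNAs of a pair hold. The comparison of SIRT3 with the whole family is not reported here, and nothing is drawn from these runs about the hairpins. Sequences are GENCODE transcripts on GRCh37, 5′ to 3′, with the shared run in capitals and 4 flanking bases of each mRNA in lower case.
SIRT3 (chr11:233000-233014, minus strand, coding): ggctCTACACGCAGAACATcgat
SIRT2 (chr19:39374392-39379736, minus strand, coding, across an exon junction): gctgCTACACGCAGAACATagat
SIRT3 (chr11:233367-233380, minus strand, coding): ggggGCCGGCATCAGCACaccc
SIRT6 (chr19:4180803-4180816, minus strand, coding): gggtGCCGGCATCAGCACtgcc

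Both runs lie in the conserved catalytic core of the enzymes.

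The genes next to each sirtuin on the chromosome were counted too, against 13.0% and 13.5% of all genes called with shSIRT3-1 and shSIRT3-2. Of the 14 nearest protein-coding neighbours, 1 on each side of each sirtuin, 12 were tested and none was called with shSIRT3-1, and with shSIRT3-2 only DNAJC12, next to SIRT1, was called, at a log2 fold change of -0.59 (adjusted p = 0.016, limma). SIRT3 (chr11:215030-236931, minus strand, GRCh37) starts 35 bases from PSMD13, a proteasome subunit gene on the other strand. The 34 bases between the genes are 88.2% G and C and are shown because both genes start here, in capitals with 12 bases of each first exon in lower case, on the plus strand.
chr11:236920-236977: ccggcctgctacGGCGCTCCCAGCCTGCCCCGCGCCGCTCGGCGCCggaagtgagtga

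PSMD13 was not called with either shRNA. In Karpas422 it held 77.9, 69.1 and 78.3 CPM with shCtr, 97.9, 96.0 and 97.5 CPM with shSIRT3-1, and 99.7, 97.1 and 98.7 CPM with shSIRT3-2. Over the 3 lines its log2 fold change was 0.17 with shSIRT3-1 (adjusted p = 0.132, limma) and 0.29 with shSIRT3-2 (adjusted p = 0.0112, limma). On its other side, RIC8A, a chaperone of G protein alpha subunits, overlaps SIRT3 by 84 bases on the opposite strand and stood higher by 0.34 and 0.38 on the log2 scale (adjusted p = 9.1e-05 and 2.73e-05, limma), under the fold limit. Some other sirtuins overlap a neighbour too, SIRT2 with NFKBIB by 163 bases and SIRT7 with MAFG by 3054 bases on its own strand. The strand setting of the counting is not given in the sources used here, so reads in overlaps cannot be told apart.

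Genes that supply NAD+ to the sirtuins were called at about the share of all genes. Of the 16 tested of 19 listed, 2 were called lower with shSIRT3-1, NAMPT and IDO1, and 2 others with shSIRT3-2, NMRK1 and KYNU, with none higher and none with both shRNAs. IDO1 passed the filter on low values only through HBL1, where it was high. With shCtr it held 14.8 CPM there, 0.00596 CPM in Karpas422 and 0.0204 CPM in OCI-LY1. KYNU held 21.6, 2.04 and 0.0102 CPM in the same order. The places of IDO1 and KYNU in the counts support nothing about the 3 lines together. Over all genes 9.09% were called lower with shSIRT3-1 and 10.2% with shSIRT3-2, and 3.92% and 3.29% higher, and these shares are the background for each list. NAMPT, the rate-limiting enzyme of the salvage route, had a log2 fold change of -0.87 ± 0.16 SE with shSIRT3-1 (adjusted p = 0.000209, limma) and -0.14 with shSIRT3-2 (adjusted p = 0.537, limma). NMRK1, a nicotinamide riboside kinase, had -0.45 and -0.83 (adjusted p = 0.0478 and 0.000706, limma). The list medians were 0.01 and -0.11, against -0.05 and -0.03 over all genes tested.

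The other NAD+ consumers held 8 tested genes of 10. None was called with shSIRT3-1 and 2 were called lower with shSIRT3-2: TNKS, tankyrase 1, at -0.90 ± 0.11 SE (adjusted p = 2.21e-06, limma) and PARP3, a poly(ADP-ribose) polymerase family member, at -0.64 (adjusted p = 0.00168, limma), against 9.09% and 10.2% of all genes. The medians were -0.11 and 0.05. Among the zinc-dependent histone deacetylases, the other deacetylase family, 10 of 11 were tested, and HDAC6, a cytosolic tubulin deacetylase, was called lower with both shRNAs, at -0.72 and -0.68 (adjusted p = 0.000165 and 0.000295, limma). HDAC4 was called lower with shSIRT3-2 alone, at -0.67 (adjusted p = 0.00279, limma), so that 1 and 2 of 10 were lower, against 9.09% and 10.2% of all genes, and the list medians were -0.13 and -0.07. The sirtuins' own medians were -0.31 and -0.25, with SIRT3 included.

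Of the listed regulators of SIRT1 or SIRT3, 10 of 11 were tested. ESRRA, the nuclear receptor ERR alpha that acts on the SIRT3 promoter, was called higher with shSIRT3-1 (0.62 ± 0.12 SE, adjusted p = 0.000323, limma) and was at 0.37 with shSIRT3-2 (adjusted p = 0.0198, limma), under the fold limit. FOXO3 (-0.71, adjusted p = 0.00021, limma) and E2F1 (-0.62, adjusted p = 0.0472, limma) were called lower with shSIRT3-1, and no regulator was called with shSIRT3-2, against 13.0% and 13.5% of all genes called. The medians were -0.04 and 0.06.

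Among 23 genes whose proteins are described as deacetylated by SIRT3, 20 were tested, 6 were called lower with shSIRT3-1, against 9.09% of all genes, and 4 with shSIRT3-2, against 10.2%, and these 4 were lower with both. None was called higher, and over all genes 521 of 13076 were lower with both. The 4 were SHMT2, mitochondrial serine hydroxymethyltransferase, at -1.51 and -1.31 (adjusted p = 6.71e-06 and 4.54e-05, limma), ALDH2, mitochondrial aldehyde dehydrogenase, at -1.47 and -1.90, PYCR1, a proline synthesis enzyme, at -1.18 and -1.28, and LONP1, a matrix protease, at -0.68 and -0.75. SHMT2 stood at 711 ± 24.8 CPM with shCtr, 151 ± 60.5 CPM with shSIRT3-1 and 248 ± 21.1 CPM with shSIRT3-2 in HBL1 (SD, n = 3). In the same order it was at 572 ± 129, 317 ± 27.2 and 375 ± 113 CPM in OCI-LY1. In Karpas422 it was at 449 ± 29.5, 182 ± 60.8 and 135 ± 31.5 CPM. With shCtr, PYCR1 was low in Karpas422 (1.27 ± 1.01 CPM) and uneven in OCI-LY1 (35.4 ± 34.6 CPM), and ALDH2 was low in OCI-LY1 (1.95 ± 1.26 CPM). The other 2 called with shSIRT3-1 were GLUD1, glutamate dehydrogenase (-0.66), and PPIF, cyclophilin D (-0.68), which was at 0.40 with shSIRT3-2, and these were named after their values were seen. The list medians were -0.20 and -0.06.

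**Figure D4:**
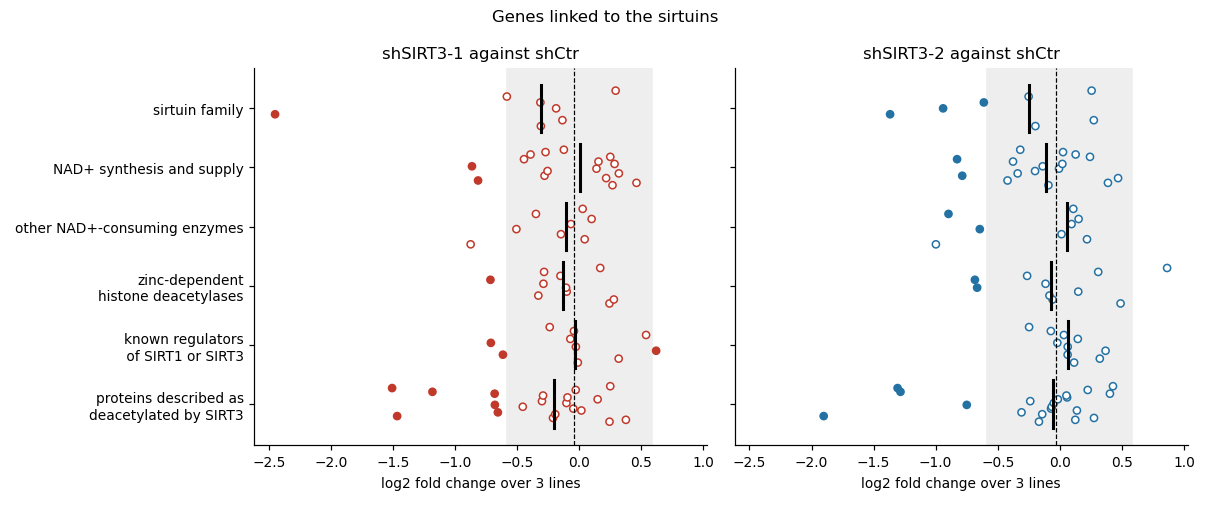
Log2 fold change over the 3 lines of the sirtuins and of 5 lists of genes linked to them, for shSIRT3-1 (left) and shSIRT3-2 (right). Points are genes tested, filled when called, short black lines are list medians, the dashed line is the median of all genes tested and the grey band is the range within a 1.5-fold change. The filled points lie on the left in every list but that of the regulators, where ESRRA stands at 0.62 with shSIRT3-1.

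Cell type markers were counted in the same way. Of 7 B-cell markers tested, none was called with shSIRT3-1 and CD22, an inhibitory co-receptor, was called lower with shSIRT3-2 (-2.12 ± 0.41 SE, adjusted p = 0.000305, limma), while CD79B, a chain of the B-cell receptor, was at 0.38 and 0.20. Of the 12 markers of other cell types 3 were tested, and EPCAM (-0.62) and PECAM1 (-0.63) were called lower with shSIRT3-2, against 10.2% of all genes. EPCAM passed the filter on low values only through HBL1, where it was high, and was at 0 CPM in Karpas422. PECAM1 went from 18.6 to 5.45 CPM in HBL1, from 3.57 to 3.14 CPM in Karpas422 and from 0.340 to 0.266 CPM in OCI-LY1. These 2 calls thus support nothing about the 3 lines together. The part of the markers in the sirtuin values was not tested.

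The genes most like each sirtuin over the 27 libraries, after the mean of each line was removed, are given as a description, and the libraries share the shRNA groups and their depth. For SIRT3 they were INPP5B (Pearson r = 0.939), COQ5, a coenzyme Q methyltransferase (r = 0.938), and ZNF518B (r = 0.932). For SIRT4 they were EXOC3 (r = 0.896), NAPSA (r = 0.891) and DNAJC16 (r = 0.885), and for SIRT5 ALDH6A1, a mitochondrial dehydrogenase of valine breakdown (r = 0.941), KIF27 (r = 0.923) and CCNDBP1 (r = 0.914). For SIRT6 they were MIF4GD (r = 0.948), PURA (r = 0.937) and ZFP64 (r = 0.932). For SIRT1 they were ACTR10 (r = 0.892), RMND5A (r = 0.856) and VAPA (r = 0.854), for SIRT2 CLCN5 (r = 0.861), UFC1 (r = 0.859) and VPS26B (r = 0.853), and for SIRT7 TMEM184B (r = 0.843), FARP2 (r = 0.841) and ZSCAN25 (r = 0.819). No sirtuin was among the 3 nearest genes of another.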

How the data were processed

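RNA from 27 libraries (3 DLBCL cell lines, 3 shRNAs, 3 replicates, day 8) was prepared by the authors with a random-primed TruSeq kit, aligned with STAR to hg19 and counted over RefSeq genes with Rsubread. The deposited values are named FPKM, but they are whole multiples of a step per library that fits 1 gene length of 1766 for every gene, so that the deposited values are CPM divided by a constant and reads could be recovered. Absolute CPM rest on that inference, ratios do not. Levels between genes were divided by the length of the GENCODE 44 canonical transcript on GRCh37. Groups came from the labels. No value column lacked a sample.

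Tests were made with limma 3.58.1 in R 4.3.3 on log2(deposited value + 0.1), with a variance trend and cell line as covariate, over genes with a value of at least 1 in at least 3 libraries (13076 genes), with Benjamini-Hochberg adjustment over all of them. Fold changes are on that scale and understate those of low genes. Calls needed more than a 1.5-fold difference together with an adjusted p under 0.05. The differences between lines were tested with a limma F test. The fits were tested on simulated data. The alternatives were other pseudocounts, no filter, other scalings, a replicate block, edgeR 4.0.16 on the recovered reads, each replicate, library or line left out, and another gene length. Library totals were 36013147 to 68114271 reads, of which 71.2% to 80.5% lay on genes. Members and lists were chosen with earlier results of these data known. Named list genes were up to 4 per list, those called with both shRNAs first, and the 3 nearest genes of each sirtuin were those with the highest Pearson r. Figures were drawn with matplotlib 3.10.9. Deviations of libraries from their group means were correlated within each line. For same-numbered libraries r was over 0.1 in 9 of 9 pairs in HBL1 and in OCI-LY1 and in 8 of 9 in Karpas422 (lowest 0.0144). Some pairs with different numbers passed 0.1 too. Replicate 1 of HBL1 shCtr and replicate 2 of HBL1 shSIRT3-1 had r = 0.347. Replicate 3 of OCI-LY1 shSIRT3-1 and replicate 1 of OCI-LY1 shSIRT3-2 had r = 0.322. The mean r was 0.320 over the 27 same-numbered pairs and -0.139 over the 54 others. Same-numbered libraries were thus more alike on average. Since the labels do not say what a number marks, this check does not establish that the numbers pair the libraries. The tests were fitted without the replicate number, except where a block is named. Part of the sequence comparison is not reported here.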

Additional observations from a re-analysis of the deposited data

Results flagged for a closer look

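The response to SIRT3 knockdown differed between the 3 cell lines for 4 sirtuins, by a limma F test on the interaction of line and shRNA with Benjamini-Hochberg adjustment over all genes tested, which 41.8% of all genes passed. SIRT3 passed at an adjusted p of 0.00291 (limma), with log2 fold changes of -1.87 and -0.88 for shSIRT3-1 and shSIRT3-2 in Karpas422, OCI-LY1 values of -2.78 and -1.08 and HBL1 values of -2.70 and -2.14. SIRT2 passed at 0.012 (limma adjusted p), with -0.70 and 0.13 in Karpas422, OCI-LY1 values of 0.07 and 0.28 and HBL1 values of 0.22 and 0.41. SIRT7 passed at 0.0393 (limma adjusted p), with 0.28 and 0.52 in Karpas422, OCI-LY1 values of 0.41 and 0.27 and HBL1 values of 0.19 and -0.02. SIRT6 passed at 0.0425 (limma adjusted p), with -0.54 and -0.12 in Karpas422, OCI-LY1 values of -0.29 and -0.04 and HBL1 values of -0.92 and -0.59.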

How the results depend on the processing

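Of 2415 values of 87 single results under 44 settings, 2256 kept their direction and side of the threshold, 84 lost and 41 gained a call, and 34 turned direction. The SIRT3 falls over the 3 lines were called in all alternatives run. The cause of the changes was not tested. With shSIRT3-1 over the 3 lines, 2 sirtuins were called with a pseudocount of 0.01, without Karpas422 and without OCI-LY1, and 1 to 2 with a replicate or library left out. With shSIRT3-2, 1 was called with a pseudocount of 1 and 1 without HBL1. Between the shRNAs, 1 was called in each of these settings. In Karpas422 with shSIRT3-1, 1 was called after quantile normalization, and in OCI-LY1 with shSIRT3-2, 0 without a filter on low values. With a replicate or library left out, 1 to 2 were called between the shRNAs, 1 to 3 in Karpas422 with each shRNA, 0 to 1 in OCI-LY1 with each, 1 to 2 and 1 to 4 in HBL1 with shSIRT3-1 and shSIRT3-2, and 2 to 4 in Karpas422 against OCI-LY1, and 0 to 4 passed the interaction. The interaction was passed by 2 with median-ratio scaling. It was lost for SIRT6 in 23 alternatives (adjusted p 0.0503 to 0.489) and for SIRT7 in 18 (0.0506 to 0.429), and without replicate 1 for SIRT3 (0.0966) and SIRT2 (0.26), all by limma.

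Values that turned direction, on the log2 scale, were these. SIRT2 with shSIRT3-1 was 0.14 without Karpas422, and SIRT7 between shRNAs 0.016 without OCI-LY1 and 0.05 without HBL1. In OCI-LY1 with shSIRT3-2, SIRT1 was -0.013 in both edgeR tests (likelihood ratio and quasi-likelihood) and SIRT6 0.0036 after quantile normalization. In HBL1, SIRT5 was 0.10 with shSIRT3-1 after quantile normalization, and with shSIRT3-2 SIRT1 was 0.036 with median-ratio scaling and SIRT7 0.10 with either scaling. Between lines, SIRT7 in HBL1 against Karpas422 was 0.0081 with median-ratio scaling, and SIRT4 in HBL1 against OCI-LY1 -0.81 after quantile normalization. Leaving out a replicate or library gave ranges across 0. In OCI-LY1 these were -0.31 to 0.022 for SIRT1 and -0.016 to 0.15 for SIRT2 with shSIRT3-1, and -0.11 to 0.22 for SIRT1 and -0.086 to 0.017 for SIRT6 with shSIRT3-2. In HBL1 they were -0.025 to 0.092 for SIRT4 and -0.47 to 0.12 for SIRT5 with shSIRT3-1, and -0.071 to 0.0202 for SIRT7 with shSIRT3-2. In HBL1 against Karpas422 they were -0.069 to 0.19 for SIRT2 and -0.16 to 0.037 for SIRT7.

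With the replicate number as a block, 1696 and 1772 genes were called with shSIRT3-1 and shSIRT3-2, against 1701 and 1760, and SIRT5 in HBL1 with shSIRT3-2 gained a call (-0.97, adjusted p = 0.00326, limma). No other sirtuin call changed under the block. The labels do not say what a number marks, and 22 of 27 libraries correlated best with their own number.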
